A study of Mus musculus with 2 samples.

Results

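Later intron peaks are the accessible regions of mouse heart chromatin that the authors' annotation places in the second or a following intron of a transcript. They were taken from the deposited table of peaks as those whose annotation begins with the word intron and carries an intron number of at least 2. They made up 11306 of the 58076 peaks (19.5%), beside 5741 first intron peaks, 19366 peaks within 1 kb of a start site and 13749 distal intergenic peaks. They lay in 4322 host genes, of which 3793 could be given a symbol.

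The peaks came from ATAC-seq, in which the Tn5 transposase inserts adapters into open DNA, on nuclei of heart tissue from mice 15 days old on a normal chow diet. The control library came from Ythdc1flox/flox mice, in which the Ythdc1 alleles are flanked by loxP sites, and the knockout library from Ythdc1 CKO mice, described as a cardiac knockout. The sources used here name neither the Cre driver nor the cells it acts in, and do not say whether tissue of several animals was pooled. There was 1 library per genotype, so no difference below has a replicate check, no p-value was computed, and all intervals (95%, exact Clopper-Pearson) cover counting error only.

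Introns hold many of the enhancers of a genome, short DNA elements that bind transcription factors and act on a promoter at a distance, often that of the host gene but also that of a neighbour. An open site in an intron can equally be an unannotated start site or a site bound by the insulator protein CTCF. Ythdc1 is the nuclear reader of N6-methyladenosine (m6A), a mark on RNA that is frequent on nascent and intronic transcripts, and it has been studied in splicing, nuclear export and chromatin regulation.

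The sequences of whole peaks were not used here, but RefSeq (GRCm38.p6, the build of the table) lists windows of 300 bases around start sites, from 250 bases before to 50 after. A start site lay inside 41 of the later intron peaks (0.363%), and 39 of the 41 belonged to genes with predicted or clone names. By the measure of size used below, 2 of the 41 were 2-fold higher in the knockout, 5 were 2-fold lower, and 29 were called in both libraries. Among all later intron peaks, 7.84% were higher, 13.3% were lower and 41.3% were called in both libraries. Among all peaks these shares were 6.09%, 8.96% and 55.0%. The whole window lay inside 14 peaks. The sequences of 4 of these are shown as examples of members whose letters can be read, taken from hosts with a symbol: the 3 with the most signal, of which the Kazn window also had the lowest ratio, and the 1 with the highest ratio. Capitals mark matches, in either orientation, to the motifs of AP-1 (TGA and TCA separated by 1 base), GATA factors (AGATAA), TEAD factors (GGAATG), the glucocorticoid receptor (the short element TGTTCT) and the TATA box (TATAAA).
Gm30284 start in Prkce intron 2, chr17:86444938-86445237, minus strand: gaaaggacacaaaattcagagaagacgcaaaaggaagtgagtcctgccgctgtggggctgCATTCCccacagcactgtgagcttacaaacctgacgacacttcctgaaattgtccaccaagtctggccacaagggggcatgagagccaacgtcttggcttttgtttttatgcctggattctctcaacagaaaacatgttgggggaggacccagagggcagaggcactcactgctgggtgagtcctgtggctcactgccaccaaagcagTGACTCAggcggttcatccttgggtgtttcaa
Gm11753 start in Tbc1d16 intron 3, chr11:119190497-119190796, minus strand: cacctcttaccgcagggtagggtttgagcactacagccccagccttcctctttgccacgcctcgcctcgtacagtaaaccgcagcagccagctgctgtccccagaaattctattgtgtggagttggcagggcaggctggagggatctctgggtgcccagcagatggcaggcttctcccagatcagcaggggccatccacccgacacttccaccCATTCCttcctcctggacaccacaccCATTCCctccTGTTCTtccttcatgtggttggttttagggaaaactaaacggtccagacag
Gm35581 start in Kazn intron 7, chr4:142126877-142127176, plus strand: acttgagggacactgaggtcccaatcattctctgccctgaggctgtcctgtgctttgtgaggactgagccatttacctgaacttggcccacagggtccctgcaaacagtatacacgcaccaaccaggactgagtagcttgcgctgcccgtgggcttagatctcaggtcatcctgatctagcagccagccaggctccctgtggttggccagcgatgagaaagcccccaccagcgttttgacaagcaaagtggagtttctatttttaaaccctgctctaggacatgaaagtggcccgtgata
Gm31771 start in Pam intron 7, chr1:97910853-97911152, plus strand: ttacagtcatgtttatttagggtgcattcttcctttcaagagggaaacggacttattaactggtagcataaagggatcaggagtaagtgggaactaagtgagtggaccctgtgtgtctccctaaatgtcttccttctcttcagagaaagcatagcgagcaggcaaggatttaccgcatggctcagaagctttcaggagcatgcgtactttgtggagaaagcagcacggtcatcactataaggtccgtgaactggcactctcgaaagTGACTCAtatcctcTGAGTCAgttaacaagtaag

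The Prkce peak held 195 control and 244 knockout counts, a ratio of 1.31 after scaling (interval 1.08 to 1.59). Prkce encodes protein kinase C epsilon. The Tbc1d16 peak held 128 and 133 counts, with an interval of 0.845 to 1.39 that includes 1. The Kazn peak was lower in the knockout, with 164 and 93 counts and a ratio of 0.594 (0.454 to 0.769). Pam encodes the enzyme that amidates peptide hormones, and its peak was called in the knockout alone, with 19 and 75 counts and a ratio of 4.04 (2.47 to 7.23). The Pam window held 2 AP-1 matches, the Prkce window 1 AP-1 and 1 TEAD match, and the Tbc1d16 window 2 TEAD matches and 1 glucocorticoid receptor element. The Kazn window held none of the 5 motifs. Over all 32851 RefSeq windows the shares with at least 1 match were 7.81% for AP-1, 11.2% for GATA, 14.7% for TEAD, 19.0% for the glucocorticoid receptor element and 13.6% for the TATA box, and a match is not a measured binding site.

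Later intron peaks were weaker, narrower and more often below the control than peaks as a whole. Their median held 50 control and 44 knockout counts, or medians of 7.40 and 6.80 CPM (counts scaled to the same total in peaks), and their median width was 302 bp against 355 bp over all peaks. The median log2 ratio of knockout to control was -0.15 (SD over peaks 0.81), against -0.05 over all peaks, -0.11 in first introns, -0.09 in distal intergenic peaks and -0.02 at promoters. A difference of at least 2-fold is used here as a rule of size: 886 later intron peaks were higher in the knockout by it, or 7.84%, against 6.09% of all peaks. Lower by it were 1508 peaks, or 13.3%, against 8.96% of all peaks. Of these 2394 peaks, 2376 had an interval that excluded a ratio of 1. They were chosen by their ratio in the same counts, so this is no separate check. The peaks past 2-fold lay in many genes: 708 host genes had at least 1 higher peak, 1106 had at least 1 lower peak, and 173 had both.

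The direction of this balance moved with the scaling. Of the later intron peaks past 2-fold, 37.0% were higher in the knockout when libraries were scaled by the counts in peaks. On the authors' RPM values, which shift every log2 ratio by about -0.17, the share was 22.9% (597 higher and 2013 lower). With a smooth trend on signal removed, it was 60.6% (1296 higher and 841 lower). All peaks moved in parallel, from 40.5% to 24.6% and 63.6%.

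The excess of lower peaks lay among weak peaks called in a single library. In the control library alone, 4450 later intron peaks (39.4%) had been called, and in the knockout alone 2189 (19.4%), with 4667 (41.3%) called in both. Over all peaks these shares were 29.1%, 15.9% and 55.0%, and in first introns 37.8%, 18.8% and 43.4%. Peaks called in a single library are chosen for a high count there. Of the later intron peaks called in the control alone, 1428 were at least 2-fold lower and 1 was higher. The knockout alone class had 820 higher and 0 lower. The single higher peak of the first class lay in intron 4 of Zbtb16, with 37 and 80 counts (named after its value was seen). Among the 4667 peaks called in both, 65 were higher (1.39%, against 0.851% of all peaks called in both) and 80 were lower (1.71%, against 1.02%), and the median log2 ratio was 0.01.

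The 3848 later intron peaks above the median signal of the table (a mean of 9.41 CPM) had a median log2 ratio of 0.00. Higher by at least 2-fold were 156 of them, or 4.05%, against 2.13% of all peaks above that signal. Lower were 166, or 4.31%, against 2.26%. Above that signal the median count of later intron peaks in the control was 99, against 132 over all such peaks and 196 at promoters. The part of count size in these shares was not tested.

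**Figure D1:**
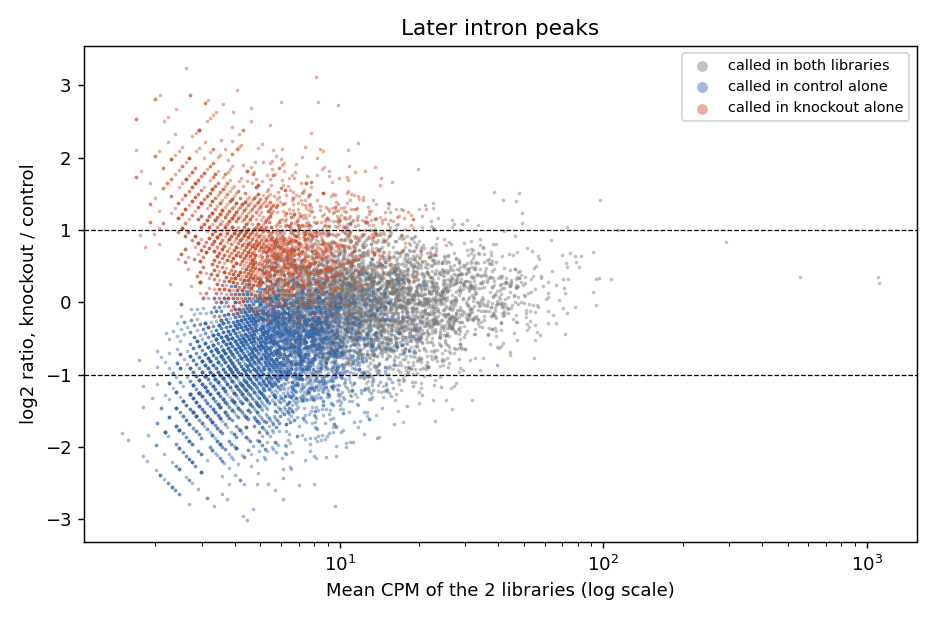
Log2 ratio of knockout to control (vertical axis) against mean CPM of the 2 libraries (horizontal, log scale) for the 11306 later intron peaks, 1 point each, coloured by the library in which the peak was called. Dashed lines mark 2-fold; the peaks called in 1 library alone lie to the left, and the 4667 called in both are centred on a median of 0.01.

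Deciles of mean signal were taken over all peaks. In deciles 1 to 9 the share of lower later intron peaks was nearer to that of distal intergenic peaks than to that of promoters. In decile 1, the weakest, 310 of 1564 later intron peaks were at least 2-fold higher (19.8%) and 526 were lower (33.6%), against 20.6% and 31.2% of distal intergenic peaks there and 19.4% and 34.2% of first intron peaks. In decile 5 the shares were 4.54% and 9.50%, against 5.05% and 9.35% of distal intergenic peaks and 4.10% and 5.94% of first intron peaks. In decile 8 they were 3.54% and 2.95%, against 2.30% and 2.50% of distal intergenic peaks and 1.85% and 2.21% of first intron peaks. Over all peaks of decile 8 they were 1.91% and 1.76%, and at promoters 0.814% and 0.775%. Decile 10, the strongest, went the other way from deciles 1 and 5. It held 173 later intron peaks, of which 7 were at least 2-fold higher and 0 were lower, and 63.6% had a log2 ratio above 0, with a median of 0.19. Over all peaks of that decile, 25 of 5808 were higher, 5 were lower and 51.5% were above 0. First intron peaks (66.3% above 0) and distal intergenic peaks (69.2%) of that decile resembled later intron peaks, and promoters did not (49.0%).

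**Figure D2:**
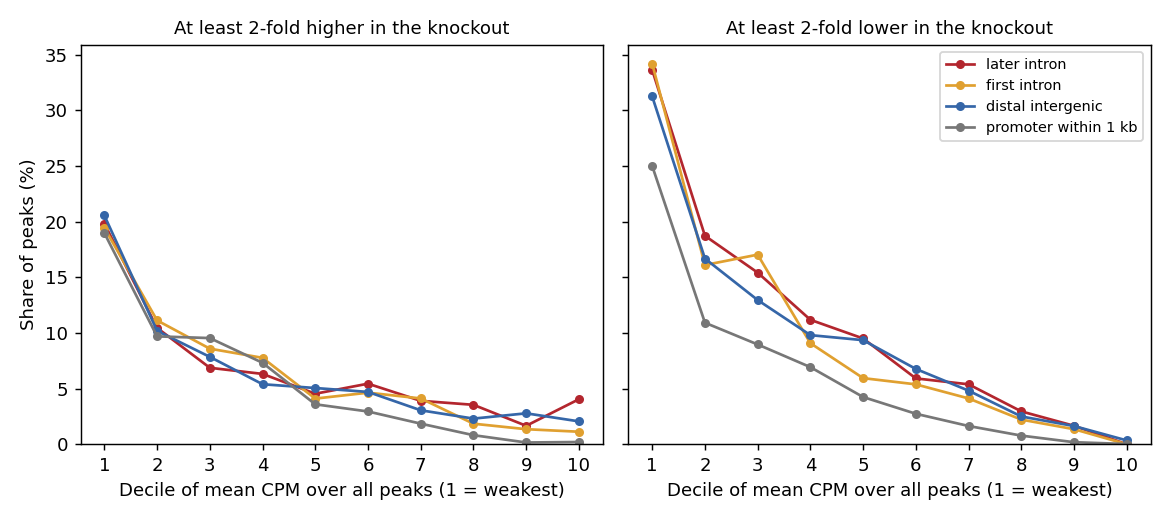
Share of peaks at least 2-fold higher (left) or lower (right) in the knockout, in deciles of mean CPM over all peaks, for 4 annotation classes. In decile 1 19.8% of later intron peaks were higher and 33.6% lower, and in decile 10 4.05% and 0%.

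Position inside the gene was spread widely. The intron number ran from 2 to 127 with a median of 4, in transcripts with a median of 11 introns, and 1647 peaks (14.6%) lay in the last intron. The distance to the start site of the gene to which the authors assigned the peak ran from 3002 to 862600 bp, with a median of 15110 bp. None lay within 3 kb because the annotation gives such peaks to promoters first. The assigned gene was the host gene itself for 6541 peaks (57.9%), and for 4778 peaks the assigned start lay downstream of the peak.

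The share of higher peaks changed little with intron number, and the share of lower peaks followed no steady course. Of the peaks past 2-fold, the part that was higher ran from 29.9% in introns 11 to 20 to 42.1% in introns 6 to 10. The share at least 2-fold lower was 12.6% in intron 2, 13.5% in intron 3, 13.6% in introns 4 and 5, 11.9% in introns 6 to 10, 17.2% in introns 11 to 20 and 12.0% from intron 21 on, beside 634 of 5741 peaks in intron 1. The highest of these did not continue into the last class. The share at least 2-fold higher was between 7.18% and 8.67% in all 6 classes. Last intron peaks had 8.20% higher and 13.7% lower, near the 7.78% and 13.3% of the others.

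With distance to the assigned start, the share of lower peaks showed a steeper course. The share at least 2-fold higher was 7.10% under 5 kb, 9.70% from 50 to 100 kb and 7.73% beyond 100 kb. The share at least 2-fold lower was 12.1% under 5 kb, 11.8% from 5 to 10 kb, 13.3% from 10 to 20 kb, 13.1% from 20 to 50 kb, 16.3% from 50 to 100 kb and 22.7% beyond 100 kb (82 of 362 peaks). The median log2 ratio went from -0.09 in the nearest class to -0.25 in the farthest. Signal moved with distance: the median of mean CPM was 7.73 in the nearest class and 5.51 in the farthest, and the part of signal in the course was not tested. Among peaks above the median signal, 9 of the 73 beyond 100 kb were at least 2-fold lower and 2 were higher, and the median log2 ratio there was 0.01.

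**Figure D3:**
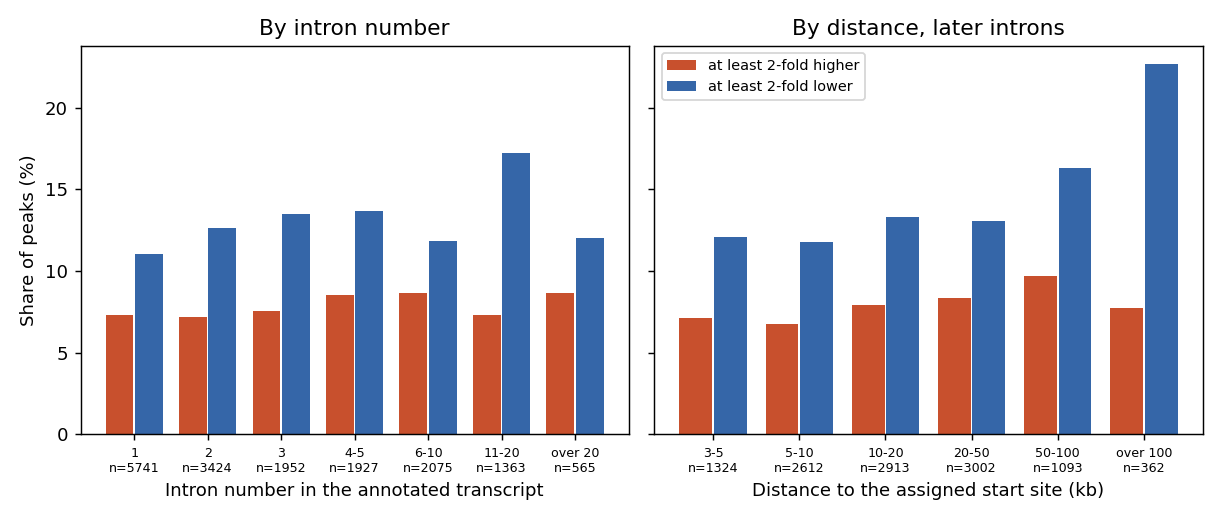
Share of peaks at least 2-fold higher (orange) or lower (blue) in the knockout by intron number (left, with intron 1 for comparison) and by distance to the assigned start site (right, later introns only, in kb), with the number of peaks under each pair of bars. The share of lower peaks was 11.9% to 17.2% across later intron numbers and reached 22.7% beyond 100 kb.

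The peaks at the ends of these scales had few counts, with the exception of Ryr2. Syne1, which encodes the nuclear envelope protein nesprin-1, had the peak with the highest intron number, 127, with 57 control and 51 knockout counts. Dst, the gene of the cytoskeletal linker dystonin, had 52 and 36 counts in intron 102. Ryr2, the gene of the calcium release channel of the cardiac sarcoplasmic reticulum, had 97 and 65 counts in intron 100. All 3 were called in the control alone, and the interval of the ratio included 1 in Syne1 and Dst but not in Ryr2 (0.503 to 0.968). The farthest peak lay in intron 12 of the netrin receptor gene Dcc, 862600 bp from the start, with 46 and 14 counts and a log2 ratio of -1.62. The next were in Gpc6 (a glypican, 50 and 36 counts) and Sorcs3 (a sortilin-family receptor, 29 and 19 counts), both with intervals that included 1.

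The strongest later intron peaks were higher in the knockout. The 3 with the most counts lay in hosts with no symbol: chr17:13551774-13553218, in the second of 5 introns of its host, held 6792 and 7833 counts. The peak at chr6:103648966-103649392 held 6534 and 7976 counts, at the RefSeq gene Chl1, a neural cell adhesion gene. The peak at chr17:13550598-13551399, in the same host as the first, held 3300 and 4029 counts. Together these 3 held 2.15% of all later intron counts of the control library and 2.76% of those of the knockout library.

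Of hosts with a symbol, Cdk8, the kinase of the Mediator complex, had the strongest peak, in intron 2 at chr5:146260893-146261455, with 1419 control and 2423 knockout counts. Its ratio was 1.78 (1.67 to 1.91). Ctif, a translation factor of the nuclear cap-binding complex, had 511 and 977 counts in intron 9, a ratio of 2.00 (1.79 to 2.23). Rassf4, a Ras-association domain gene, had 357 and 911 counts in intron 3 at chr6:116653819-116655353, a ratio of 2.66 (2.36 to 3.02). The annotation assigned this last peak to Depp1, whose start lies 3123 bp away. The peak in Sptbn1 (beta-spectrin), with 565 and 677 counts, had a smaller ratio of 1.25, with an interval above 1.

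Among peaks above the median signal, the highest ratio lay in the kelch-family gene Klhl29. Its peak in intron 2, at chr12:5268056-5268603, held 17 control and 111 knockout counts, a log2 ratio of 2.73 (ratio 6.66, interval 4.07 to 12.1). Zbtb16, a zinc-finger transcription factor gene induced by glucocorticoids, followed in intron 2 at chr9:48783307-48783645, with 28 and 125 counts and a log2 ratio of 2.20 (ratio 4.60, 3.08 to 7.30). The other 6 of the 8 highest had log2 ratios from 1.72 to 1.89. They lay in Gsg1l (an AMPA receptor subunit partner), Itgb5 (integrin beta 5), Tm4sf4 (a tetraspanin-like membrane protein), Celf4 (an RNA-binding protein), Atg7 (an autophagy enzyme) and Wasf2 (an actin regulator of the WAVE family). For example, the Itgb5 peak in intron 3 held 39 and 138 counts, and the Atg7 peak, in the last of 18 introns, held 33 and 106. All 8 were called in the knockout alone.

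The lowest ratios were of similar size. Dnajb6, a co-chaperone gene, had 107 control and 23 knockout counts in its last intron at chr5:29817386-29817845, a log2 ratio of -2.13 (ratio 0.228, 0.137 to 0.355). RefSeq has no coding gene at this peak, so its place inside Dnajb6 rests on the authors' annotation. Slit3, a guidance ligand gene, had 114 and 27 counts in intron 4, a log2 ratio of -1.99. Both peaks were assigned to genes with no symbol. A pair of calcium channel genes was among the 8 lowest. Cacna2d3, an auxiliary subunit, had 105 and 25 counts in intron 27, and Cacna1e, a pore subunit, had 121 and 30 counts in intron 25. The other 4 were Mindy4b-ps (147 and 38 counts), the BMP-binding protein gene Bmper (150 and 39), the nuclear protein gene Aff3 (99 and 27) and the N-glycan mannosyltransferase gene Alg9 (106 and 29). Of the 8, the Bmper peak was called in both libraries and the other 7 in the control alone.

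Peaks called in both libraries were not taken for a high count in 1 of them. The highest of these lay in Per2, a repressor of the circadian clock, in intron 4 at chr1:91446043-91446815, with 134 control and 371 knockout counts (log2 ratio 1.53, ratio 2.89, 2.37 to 3.55). A second Per2 peak, in intron 9, held 173 and 439 counts, a log2 ratio of 1.40 (named after its value was seen). Both later intron peaks of Per2 were thus higher. Mical2, which oxidises actin, had 168 and 458 counts in intron 3, a log2 ratio of 1.51. Rassf4 (1.41), Tmem241 (1.37, 85 and 211 counts) and Ctif (1.35, 80 and 196 counts in intron 7) completed the 5 highest, taking 1 peak per gene. The lowest was the Bmper peak in intron 13 at chr9:23410512-23410967, with a log2 ratio of -1.87. Hcls1, a cortactin relative of blood cells, had 179 and 54 counts (-1.66), and the tyrosine kinase gene Fer had 236 and 72 (-1.64). The centromere protein gene Cenpf had 139 and 45 counts (-1.55), and the peroxidasin gene Pxdn, whose product crosslinks collagen IV, had 167 and 56 (-1.50).

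Peaks of the same gene often differed in direction. Of the 4322 host genes, 2230 had 1 later intron peak and 438 had at least 6, which together held 4284 peaks. In 102 of the 438 at least 1 peak was 2-fold higher and another 2-fold lower, 91 had peaks past 2-fold in the higher direction alone, 152 in the lower direction alone, and 93 had none. The log2 ratios of all peaks were below 0 in 17 of the 438 hosts and above 0 in 8. The median over a host's peaks was below 0 in 279 of the 438 and ran from -1.59 to 0.88. The SD of log2 ratios around the host's own mean was 0.731, against 0.782 over all these peaks.

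The hosts with the most later intron peaks are long genes. Arhgap26, a GTPase-activating protein gene, had 46, of which 16 were above 0, 1 was 2-fold higher and 3 were 2-fold lower, with a median log2 ratio of -0.40. Msi2, which encodes the RNA-binding protein Musashi-2, had 37 peaks with a median of -0.24, 2 of them 2-fold lower. Nav2, a neuron navigator gene, had 32 with a median of -0.44, 3 higher and 5 lower. These 3 hosts spanned both directions. Frmd4a, a scaffold protein gene, had 29 peaks with a median of -0.13, and Zfhx3, a homeobox zinc-finger gene, had 24 with 4 higher and 3 lower. The Zfhx3 median was 0.05 and changed sign to -0.13 on the authors' RPM values. Auts2, a gene linked to Polycomb complexes, stood lower than these, with 20 of 23 peaks below 0, 8 of them 2-fold lower, 0 higher and a median of -0.66.

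Bmper had the lowest median of all hosts with at least 6 peaks. Its 6 peaks held 418 control and 148 knockout counts together, all 6 were below 0, 4 were 2-fold lower, and the median was -1.59. Its promoter peak held 176 and 168 counts, a log2 ratio of 0.00 to 2 decimals. The low hosts named next also had promoters near 0. They and Bmper were chosen for low intron medians, so a promoter nearer 0 follows from that choice. Macrod2, an ADP-ribose hydrolase gene, had 5 of 7 peaks 2-fold lower, a median of -1.35 and a promoter at 0.02. Ntm, the gene of the cell adhesion molecule neurotrimin, had 7 of 7 peaks below 0, 4 of them 2-fold lower, a median of -1.25 and a promoter at -0.01. With the trend on signal removed, the medians of Macrod2 and Ntm were -0.58 and -0.57. Called in the control alone were 4 of 6 peaks in Bmper, 5 of 7 in Macrod2 and 5 of 7 in Ntm. Such peaks are chosen for a high count in that library.

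Of hosts with a symbol and at least 6 peaks, those with the highest medians were close to each other. Fbln5, an elastic fibre gene, had 6 of 6 peaks above 0, 2 of them 2-fold higher, a median of 0.80 and a promoter at 0.58 (72 and 103 counts). Mylk, the myosin light chain kinase of smooth muscle and other cells, had 6 of 7 peaks above 0, 3 of them higher, a median of 0.80 and a promoter at -0.10. Klhl29 had 10 of 14 peaks above 0, 6 higher and 1 lower, a median of 0.80 and a promoter at -0.39. In Klhl29 the 6 peaks of intron 2 all lay above 0, from 0.31 to 2.73, while the 7 of intron 3 ran from -1.14 to 1.95. Ano6, a phospholipid scramblase gene, had 4 of 6 peaks above 0 and a median of 0.76.

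Hosts with many called peaks gave the clearest runs. Zbtb16 had 14 later intron peaks, 13 of them above 0, 6 of them 2-fold higher and 0 lower, with a median log2 ratio of 0.68. Its strongest peak, in intron 3, held 322 control and 637 knockout counts (named after its value was seen). Tns1, the gene of the focal adhesion protein tensin-1, had 22 peaks, 20 above 0, 3 higher and 0 lower, with a median of 0.47. Ctif had 22 peaks, 18 above 0, 3 higher and 0 lower, with a median of 0.65. The Tns1 and Ctif peaks ranged from 62 to 454 and from 31 to 511 counts in the control. These 3 hosts are described because the rule for named genes had taken a peak in each.

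**Figure D4:**
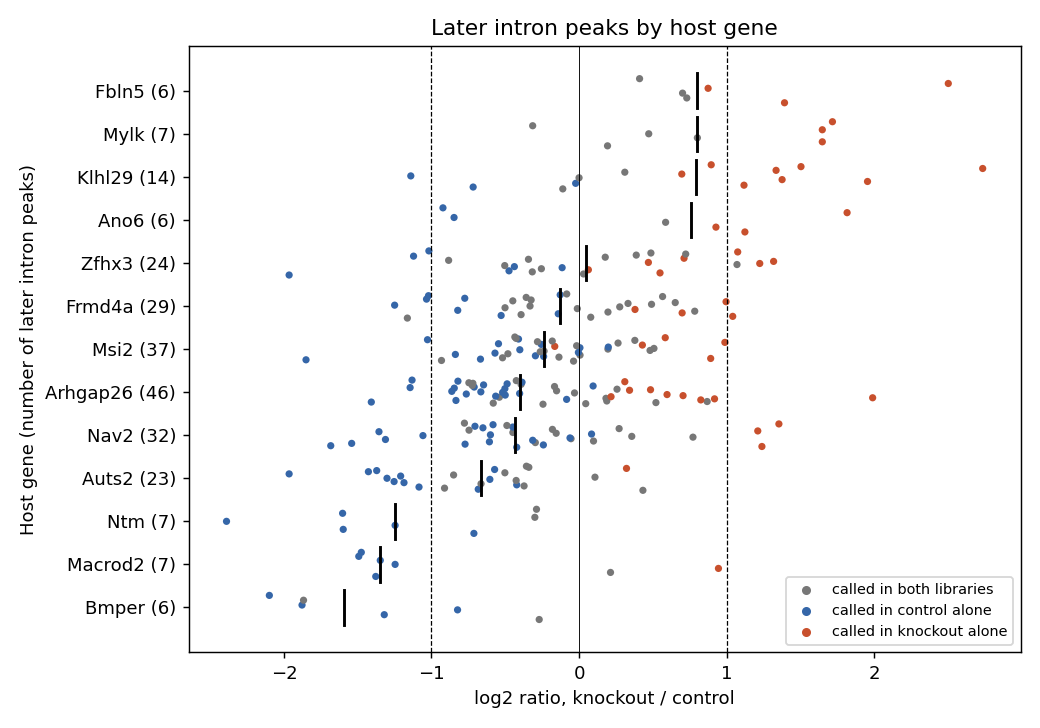
Log2 ratio of knockout to control (horizontal axis) of every later intron peak in 13 host genes, 1 point per peak, coloured by the library in which it was called; black bars are host medians, dashed lines mark 2-fold and numbers in brackets count peaks. Bmper and Ntm lie wholly below 0 and Fbln5 wholly above, while Arhgap26, Nav2 and Zfhx3 spread over both sides.

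Peaks of a host were also set beside its promoter and beside each other, and the tie to the promoter was too weak to count as a finding. Over the 405 hosts with at least 6 later intron peaks and a promoter peak, the median of the intron peaks and the promoter's log2 ratio had a Pearson r of 0.18 and a Spearman coefficient of 0.20. Adjacent later intron peaks of the same host had the same sign in 602 of 1003 pairs (60.0%) when under 2 kb apart, with a Pearson r of 0.28. Where both peaks of such a pair were called in both libraries, 138 of 210 pairs (65.7%) had the same sign and r was 0.43. At 50 kb or more the values were 512 of 906 pairs (56.5%), with r of 0.06. Of such far pairs with both peaks called in both libraries, 63 of 121 (52.1%) had the same sign, with r of -0.05. Since 42.6% of all later intron peaks were above 0, many pairs share a sign without any tie. These points share 2 libraries, genes and in part the same open region, so the values are descriptions.

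The gene lists below were read by the peaks that lie in later introns of their genes. Of 457 listed genes, 228 had at least 1 such peak. Each list is set beside all later intron peaks, with 7.84% higher, 13.3% lower and a median log2 ratio of -0.15. Of the 27 lists with at least 5 peaks, 14 kept the sign of their median under all 7 scalings and 13 did not. In 11 of the 27, among them those of calcium handling, ion channels, extracellular matrix, adhesion and TGF-beta, the larger of the counts of higher and lower peaks changed side with the scaling.

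Contractile genes had peaks of high signal. In sarcomere genes 14 of 16 peaks lay above the median signal, 2 of the 16 were 2-fold higher, 0 were lower and the median was 0.10, which became -0.07 on RPM values. Later intron peaks above that signal were lower in 4.31% of cases. Myom2, an M-band protein gene, had 112 control and 237 knockout counts in intron 31 (log2 ratio 1.14). Myh6, the adult cardiac myosin heavy chain, had 210 and 114 counts in intron 20 (-0.82). The pair went in opposite directions. In Z-disc and costamere genes 35 of 65 peaks lay above that signal, 5 of the 65 were higher and 2 were lower (5 and 6 on RPM), with a median of 0.14 (-0.03 on RPM). Fhod3, a formin that builds sarcomeres, held 23 of the 65 and had a peak with 34 and 92 counts in intron 3 (1.49). Ldb3, the Z-disc protein Cypher, had 76 and 168 counts in intron 12 (1.20), and Palld, the actin-bundling palladin, had 96 and 38 counts in intron 2 (-1.26). Intercalated disc genes had 5 of 54 higher and 3 lower, with a median of -0.04 that became 0.04 with the trend removed. Cdh2, N-cadherin, had 50 and 100 counts in intron 2 (1.06), while the junction protein genes Tjp1, with 96 and 57 in intron 2 (-0.68), and Ctnna3, with 91 and 55 in intron 7 (-0.66), went the other way.

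Calcium handling and channel genes had peaks in both directions. Of 109 calcium handling peaks 6 were 2-fold higher and 19 lower, with a median of -0.10; with the trend removed 11 were higher and 9 lower. Jph2, the junctophilin that ties the T-tubule to the sarcoplasmic reticulum, had 227 and 96 counts in intron 2 (-1.17). Camk2d, the main cardiac calmodulin-dependent kinase, had 142 and 59 counts in intron 3 (-1.20), and Akap6, a perinuclear anchor of protein kinase A, had 106 and 43 in intron 2 (-1.23). Slc8a1, the sodium-calcium exchanger, went the other way with 43 and 112 counts in its last intron (1.43). Of 92 ion channel peaks 9 were higher and 11 lower (9 and 8 with TMM factors), and the median was -0.28, with 30 above 0. Cacna1c, the pore of the L-type calcium channel, held 21 of the 92 and had 210 and 95 counts in intron 3 (-1.08). Ank3, the membrane anchor ankyrin-G, had 51 and 156 counts in intron 8 (1.67), Kcnq1, a potassium channel of repolarisation, had 42 and 88 in its last intron (1.12), and Kcnd3 had 93 and 43 in intron 2 (-1.04). Of 106 adrenergic and phosphodiesterase peaks 8 were higher and 18 lower, with a median of -0.17 that became 0.05 with the trend removed. Pde4d, a cAMP phosphodiesterase, held 23 peaks and belongs to both this list and that of calcium handling.

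Transcription factor genes were mixed, and nuclear receptor genes lay low. Of 60 peaks in cardiac transcription factor genes 4 were higher and 5 lower, with a median of -0.15. Mef2c had 146 and 87 counts in intron 2 (-0.68), Tbx5 had 88 and 58 in its last intron (-0.53), and Myocd, the coactivator of serum response factor, had 72 and 118 in intron 2 (0.77). Of 65 nuclear receptor peaks 1 was 2-fold higher and 11 were lower (16.9%), 13 of 16 genes had a median below 0, and the list's median was -0.30. Ppara, the receptor that drives fatty acid oxidation genes, had 141 and 58 counts in its last intron (-1.21). Esrrb, an estrogen-related receptor, had 136 and 58 in intron 3 (-1.16). In contrast Pparg had 88 and 157 counts (0.89) and Rara had 89 and 151 (0.82). The 30 nuclear receptor peaks called in both libraries had a median of 0.00.

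Glucocorticoid target genes had the highest median of the lists that are not cell type markers. The lists were chosen with earlier results of these data known, so this rank is a description. Of 28 peaks 7 were 2-fold higher, 1 was lower and 21 were above 0, with a median of 0.57. On RPM values the median was 0.40, and among the 12 called in both libraries it was 0.46. Zbtb16 alone held 14 of the 28; the 14 in other genes had a median of 0.42 with 1 higher and 1 lower. Fkbp5, a co-chaperone of the glucocorticoid receptor, had 74 and 126 counts in intron 8 (0.83) and, in a peak named after its value was seen, 30 and 83 in intron 2 (1.52). Tsc22d3, the leucine zipper gene known as Gilz, had 71 and 113 in intron 2 (0.73). Sgk1, a kinase gene of the same list, had 128 and 106 counts in intron 2 (-0.21), with an interval that includes 1.

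Metabolic genes had 10.5% (fatty acid) and 10.8% (glucose) of their peaks past 2-fold, against 21.2% of all later intron peaks. Of later intron peaks above the median signal 8.37% were past 2-fold. Above that signal lay 12 of 19 and 27 of 65 peaks of these lists, and the part of signal was not tested. Of 19 peaks in genes of fatty acid oxidation and mitochondria 1 was higher and 1 lower, with a median of 0.11 (-0.06 on RPM). Ppargc1b, a coactivator of mitochondrial genes, had 61 and 109 counts in intron 3 (0.90), the fatty acid transporter gene Cd36 had 94 and 130 in intron 8 (0.53), and Ppara, given above, was the lower peak. Of 65 peaks in genes of glucose and insulin signalling 4 were higher and 3 lower, with a median of -0.09. Igf1r, the receptor of insulin-like growth factor 1, held 14 of these and had 38 and 87 counts in intron 2 (1.25). Rptor, the mTOR complex subunit raptor, had 103 and 58 in intron 7 (-0.76), and the forkhead factor gene Foxo3 had 96 and 61 in intron 2 (-0.59).

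Matrix, adhesion and growth factor genes had peaks in both directions. Of 71 extracellular matrix peaks 7 were higher and 9 lower, with a median of 0.03 (-0.15 on RPM). The neighbouring collagen IV genes differed, with 57 and 122 counts in Col4a1 intron 2 (1.15) and 92 and 38 in Col4a2 intron 4 (-1.20). Timp3, a metalloproteinase inhibitor, had 146 and 294 in intron 2 (1.07), and Ltbp1, which binds latent TGF-beta, had 150 and 63 in intron 3 (-1.18). Of 135 peaks in adhesion and actin regulator genes 10 were higher and 14 lower, with a median of -0.03 (0.03 with the trend removed). Tns1 had 154 and 393 counts in intron 4 (1.41), and the integrin gene Itga9 had 309 and 116 in intron 15 (-1.35). Without the 22 Tns1 peaks the list's median was -0.15, that of all later intron peaks. Of 52 peaks in TGF-beta and BMP genes 7 were higher and 9 lower, with a median of 0.06 over peaks and -0.19 over genes. The receptor gene Tgfbr2 had 72 and 165 counts in intron 6 (1.25), Smad6, an inhibitor of BMP signalling, had 57 and 123 in its last intron (1.17), the co-receptor Tgfbr3 had 100 and 29 in intron 2 (-1.71), and the BMP receptor Acvr1 had 178 and 79 in intron 2 (-1.10).

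Genes of the m6A pathway and of splicing had later intron peaks on both sides of 0, and Ythdc1 itself had no later intron peak. Of 15 peaks in m6A writer, reader and eraser genes 0 were 2-fold higher and 1 was lower, and 10 of the 15 lay in the demethylase gene Fto, whose named peak held 108 and 83 counts in the last intron (-0.31). Over the 15 peaks the median was 0.16 (-0.02 on RPM), and over the 5 in genes other than Fto it was 0.80. Igf2bp2, an m6A-binding protein, had 65 and 121 counts in intron 12 (0.95). Of 49 splicing regulator peaks 2 were higher and 4 lower, with a median of -0.03 (0.07 with the trend removed). Rbpms, an RNA-binding splicing factor, had 193 and 323 counts in its last intron (0.80), Rbfox2 had 58 and 91 in intron 2 (0.71), Rbfox1 had 156 and 80 in intron 4 (-0.90) and Mbnl2 had 152 and 91 in intron 2 (-0.67). Of 11 cell cycle peaks 0 were higher and 2 lower, and 10 of them lay in Cdk6, with 247 and 104 counts in intron 4 (-1.18).

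**Figure D5:**
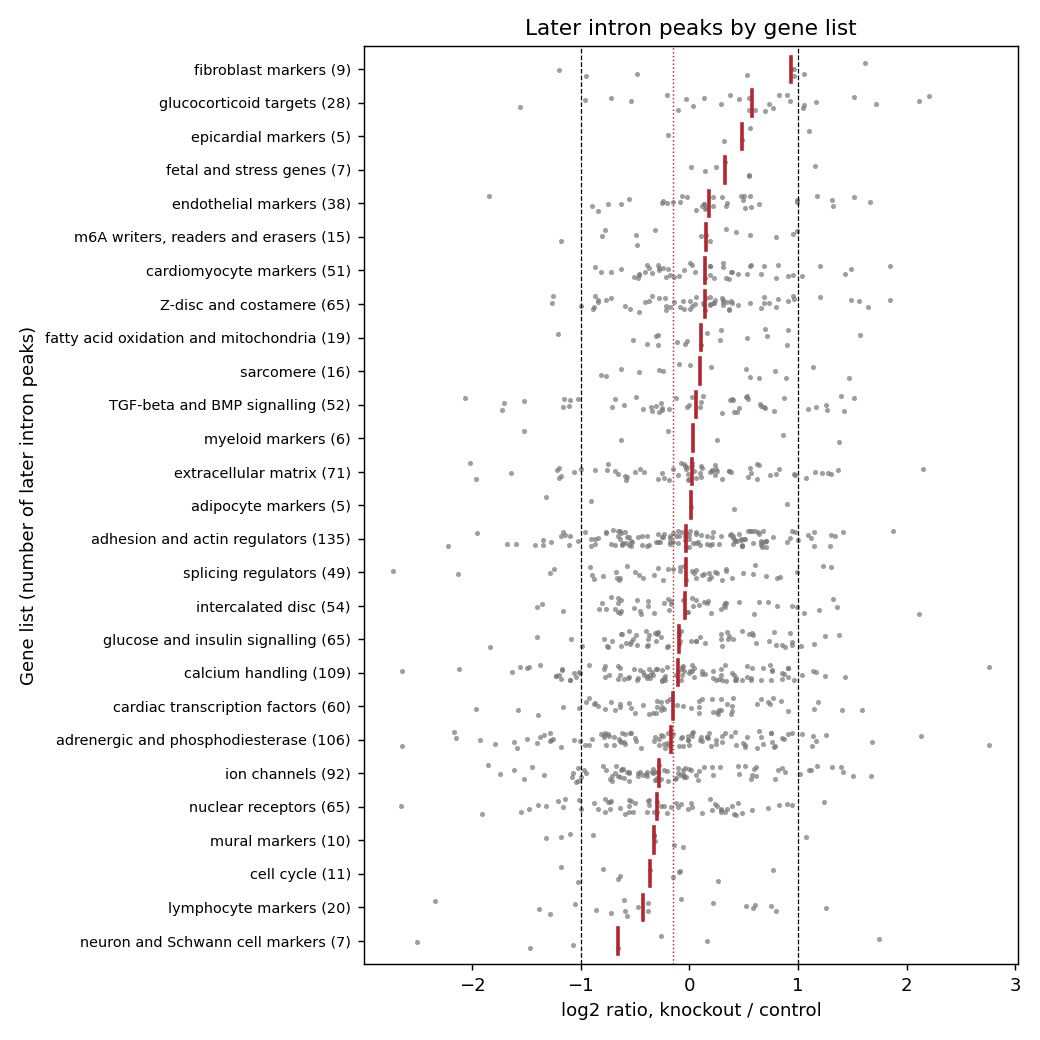
Log2 ratio of knockout to control (horizontal axis) of the later intron peaks in 27 gene lists with at least 5 peaks, 1 grey point per peak, jittered vertically. Red bars are list medians, the dotted line is the median of all later intron peaks (-0.15), dashed lines mark 2-fold and numbers in brackets count peaks; glucocorticoid targets have a median of 0.57 and nuclear receptors -0.30.

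Marker genes of several cell types of a heart had later intron peaks. Of 13 cardiomyocyte markers 9 had later intron peaks, 51 in all, with 6892 control and 6910 knockout counts, 5 higher and 0 lower. Endothelial markers had peaks in 11 of 16 genes and fibroblast markers in 6 of 12. Skeletal muscle markers had 1 peak in 1 of 11 genes and erythroid markers 3 peaks in 1 of 8. Over all lists 228 of 457 genes had a later intron peak, so these shares do not show which cells the tissue held.

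The 38 endothelial marker peaks held 3847 and 4198 counts, with 5 higher, 1 lower and a median of 0.18, which was 0.01 on RPM values. Kdr, the receptor VEGFR2, had 49 and 118 counts in intron 22 (1.32), Flt1, VEGFR1, had 59 and 128 in intron 14 (1.17), and Eng, the TGF-beta co-receptor endoglin, had 189 and 360 in intron 2 (0.99). Erg, an endothelial transcription factor, went the other way with 191 and 98 in intron 2 (-0.90). The 9 fibroblast marker peaks held 504 and 653 counts, with 2 higher, 1 lower and a median of 0.93, and on RPM values 1 was higher and 2 were lower. Gsn, gelsolin, had 66 and 121 in intron 2 (0.93), and Dpt, the matrix protein dermatopontin, had 108 and 74 in intron 2 (-0.48). The 10 mural marker peaks held 652 and 463 counts, with 1 higher and 3 lower, and none of the 4 genes had a median above 0. Lymphocyte marker peaks had 1 higher and 4 lower of 20 (median -0.43, 1655 and 1409 counts), and neuron and Schwann cell markers 1 higher and 3 lower of 7 (median -0.66).

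Myeloid markers had 1 higher and 1 lower of 6 peaks (186 and 212 counts), epicardial markers 1 higher and 0 lower of 5, with Wt1 at 91 and 122 counts in intron 3, and adipocyte markers 0 higher and 1 lower of 5. In bulk tissue, more cells of a type and a more open site in each cell cannot be told apart, and the part of cell makeup in the differences above was not tested. For cardiomyocyte markers the median was 0.14 over peaks and -0.15 over genes, since 23 of the 51 peaks lay in Fhod3, and -0.12 over the peaks in other genes.

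The host gene named by the annotation was not always the gene at the peak. The host with the most peaks and no symbol, on chr7:130162451-133123350, had a span of about 2960900 bp in the table with 31 other coding genes inside it. Of its 41 later intron peaks 23 lay in no RefSeq coding gene, 5 lay in Fam53b, 4 in Ctbp2, 4 in Chst15, 3 in Ate1 and 2 in Tacc2, the last both 2-fold lower. There were 9 hosts with at least 5 other coding genes inside their span, which held 82 later intron peaks. Of all later intron peaks 1123 (9.93%) had no RefSeq coding gene at their midpoint.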

How the data were processed

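Nuclei of heart tissue were profiled by ATAC-seq in 1 control and 1 knockout library (paired-end reads, per the labels' protocols). BWA and MACS2, with no version, and the build GRCm38.p6 are named in the submitters' processing notes. How reads were filtered, deduplicated and shifted, and the threshold for peaks, were not given in the sources used here. Deposited by the authors were raw whole-number counts for each merged peak, per the file headers. RPM values of the authors were checked against them and equal (count + 1) times 1 constant per library. Fold enrichment in the authors' table is a ratio proportional to (count + 1) over peak width, used for 1 alternative. The log2 fold change that the authors deposited derives from the RPM values and enters no other result. Coordinates, intron numbers, hosts and distances are the table's. All columns of per-sample values were mapped (0 left over).

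Counts in peaks summed to 6755590 (control) and 6466537 (knockout). Each log2 ratio was taken from CPM over these sums with 0.5 counts added, and intervals are exact (Clopper-Pearson, 95%). Python 3.11.15, numpy 2.4.6, pandas 2.3.3, scipy 1.17.1 and statsmodels 0.14.6 were used, with edgeR for the TMM alternative. The ratio, its interval and the 2-fold rule were tested on simulated data.

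The table pairs no identifiers with symbols, so 18344 of 24915 identifiers, and the hosts of 10289 later intron peaks (91.0%), took symbols by position from RefSeq: spans overlapping by at least 0.5 of their union and 2 times the next candidate, ends within 1 kb, or lying 95% inside a single coding gene. An identifier with neither ontology terms nor 5 introns took no coding symbol. This rule was revised after values had been seen. The members and the 29 gene lists were chosen with earlier results of these data known.

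Named genes were the 8 highest and 8 lowest ratios above the median signal, the 5 highest and 5 lowest of those called in both libraries, the 5 strongest peaks, the 6 hosts with most peaks, the 4 highest and 4 lowest host medians, the 3 highest intron numbers, the 3 farthest peaks and up to 4 peaks per list (1 per gene with a symbol, no predicted genes). Others are said to be named after their values were seen. A few genes that the rule took are not reported here. Alternatives changed the scaling, the added counts, the signal, calling and enrichment thresholds, the member rule and the size rule.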

Additional observations from a re-analysis of the deposited data

How the results depend on the processing

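With 1 library per genotype, no library could be left out, and no paired analysis was possible because each genotype had a single sample. The median log2 ratio of later intron peaks was -0.32 on the authors' RPM values, -0.095 with TMM factors or with the median of all peaks at 0 (-0.0949 and -0.0953), -0.016 with the trend removed, 0.0014 above the median signal, 0.014 for peaks called in both libraries, -0.18 at a fold enrichment of at least 10, -0.16 at 10 kb or more (-0.165) and -0.12 for the strongest peak per host. The counts higher and lower were 156 and 166 above the median signal, 65 and 80 for peaks called in both, 278 and 616 at a fold enrichment of at least 10, 513 and 833 where the host was the assigned gene, 254 and 490 for the strongest peak per host, and 1974 and 3114 at 1.5-fold. With the trend removed 841 were lower. Of these, the restrictions to fewer peaks lower the counts by construction. The 113 named peaks gave 678 alternative values, of which 0 changed sign past 2-fold and 4 left their counting interval, all 4 on RPM values. A stricter overlap of peaks was not run, since the table holds merged intervals alone. Weak peaks limit the precision: the interval of a typical later intron peak spans a factor of 2.41.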
